A study of Mus musculus with 9 samples.

Results

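The genes described here encode the proteins of the cytosolic ribosome. They were chosen by symbol: rows of the count table whose Ensembl identifier belongs, in the GENCODE M21 annotation, to a protein-coding gene named Rpl or Rps followed by a number, Rpsa, or Rplp0 to Rplp2. The annotation holds 83 such genes, and 76 of them were among the 14779 genes of the table. Of these 76, 44 encode proteins of the large subunit, 29 encode proteins of the small subunit and 3 encode the stalk proteins. Rpl10l, Rpl24, Rpl39l, Rpl3l, Rps13, Rps27 and Rps29 were not analysed here.

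The study sequenced polyadenylated RNA of mouse hippocampus in 9 libraries, 3 in each of 3 groups. Air+IgG mice were air controls given IgG, the control antibody. CIE+IgG mice carried the label CIE, here the chronic intermittent ethanol model of alcohol dependence, and were also given IgG. CIE+IL17 Ab mice carried the same CIE label and were given an antibody against interleukin 17A in place of IgG. Strain, sex, age, dose and duration were not stated in the labels, and there was no air group with the antibody, so the antibody's effect without ethanol could not be compared.

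A ribosome is built from ribosomal RNA and one copy of nearly every ribosomal protein, so cells make these proteins in matched amounts. Their mRNAs are short and abundant, and most begin with a C followed by a run of pyrimidines, known as the 5′ terminal oligopyrimidine motif, through which mTORC1 signalling controls their translation. Because these mRNAs are so abundant, they have often been reverse-transcribed and inserted back into the genome, which leaves many processed copies whose sequence is nearly that of the mRNA. In neurons they are also known to be carried into dendrites and axons.

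The start of the mRNA is shown first because it is where the motif described above would stand. RefSeq promoter windows on GRCm38.p6 were on hand for 57 of the 76 genes, each with 250 bases before and 50 from the annotated start onward. In 12 of the 57 (21.1%), a C followed by at least 4 more C or T stood on the start base itself, against 3.01% of all 27025 genes with a window. When the run was allowed to begin within 5 bases of the start, 28 of the 57 (49.1%) held it, against 21.2% of all genes. The lines below give 30 bases each, from 10 before the annotated start, with the pyrimidine run in capitals as it was counted, forward from its C. In the first 5 the capitals begin on the start base, and in Rpl12 they begin downstream of it. In those 5, C or T also stands directly before the capitals, so the stretch of pyrimidines itself begins upstream of the annotated start.
Rpl15 (chr14:18270967-18270996, minus strand): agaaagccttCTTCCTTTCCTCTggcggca
Rpl38 (chr11:114668570-114668599, plus strand): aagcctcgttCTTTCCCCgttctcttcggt
Rplp2 (chr7:141447641-141447670, plus strand): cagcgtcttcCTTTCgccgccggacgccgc
Rps6 (chr4:86857348-86857377, minus strand): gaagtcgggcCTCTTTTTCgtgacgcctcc
Rps18 (chr17:33955646-33955675, minus strand): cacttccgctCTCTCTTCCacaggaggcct
Rpl12 (chr2:32961702-32961731, plus strand): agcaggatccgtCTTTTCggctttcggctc
In the same windows of 300 bases, the letters CCGGAAG, on either strand, were found in 25 of the 57 genes (43.9%) and in 9.93% of all genes. The letters AAGATGGC, on either strand, were found in 5 of the 57 (8.77%) and in 3.19% of all genes. These matches describe the windows only.

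The coding sequences bear on how the counts can be read. The 76 genes had 922 annotated copies in the genome, all but 2 of them away from the gene's own locus, whose sequence was at least 90% identical over at least 80% of the coding sequence, with a median of 8 copies a gene and the most, 77, for Rpl21. Only 30 of these copies had a row in the count table, and they belonged to 23 of the genes. The counts are estimates that divide reads between similar sequences: 91.2% of the values of the 76 genes had decimals, against 27.1% of all values in the table. Few of the genes, Rpl4, Rpl8, Rps9 and Rps27l among them, had whole counts in every library. The next lines show why the division is difficult, with coding bases 1 to 60 of Rpl12, a protein of the large subunit next to the stalk (chr2:32961559-32965345), and of Gm10275, a transcribed processed pseudogene (chr10:29698746-29699380). Over all 495 coding bases of Rpl12 the pair had 0 differences.
Rpl12: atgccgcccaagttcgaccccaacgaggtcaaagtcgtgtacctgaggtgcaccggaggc
Gm10275: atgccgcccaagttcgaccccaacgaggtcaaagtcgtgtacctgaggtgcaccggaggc
Rps7, a small-subunit protein (chr12:28630854-28635953), had 2 copies in the table: Gm6472 (chrX:152909505-152910155), with 3 differences over 582 coding bases, and Gm9493 (chr19:23619749-23620319). Coding bases 16 to 75 are shown, with the bases that differ in capitals.
Rps7: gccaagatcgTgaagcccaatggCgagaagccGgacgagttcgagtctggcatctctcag
Gm6472: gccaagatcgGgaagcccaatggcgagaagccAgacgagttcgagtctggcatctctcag
Gm9493: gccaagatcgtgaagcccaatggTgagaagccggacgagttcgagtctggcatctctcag

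For 8 of the 23 genes, the gene's own row held less than 50% of the counts of gene and copies together. Rps7 held 6.65% of them over all libraries, Rpl12 7.86%, Rpl35 14.8%, Rpl10 15.1%, Rpl27 20.9%, Rpl27a 22.8%, Rpl11 26.6% and Rpsa 33.4%. For 10 genes, among them Rplp1 with 99.3% and Rpl26 with 99.5%, the gene's own row held more than 95%. The share of Rpl12 was 8.30%, 8.59% and 8.97% in Air+IgG and 6.85%, 8.21% and 9.14% in CIE+IgG. In CIE+IL17 Ab it was 6.00%, 6.97% and 6.90%, below every air library. The share of Rpl27 ranged most widely, at 5.95% in CIE+IgG replicate 2 and 100% in replicate 1 of Air+IgG and replicate 2 of the antibody group. Rpl23a also moved, from 31.0% in CIE+IgG replicate 2 to 77.9% in CIE+IL17 Ab replicate 3. For the genes with low or moving shares, the gene's row alone does not say how much of its mRNA the tissue held, so values with the copies added are given beside the results they change.

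**Figure D1:**
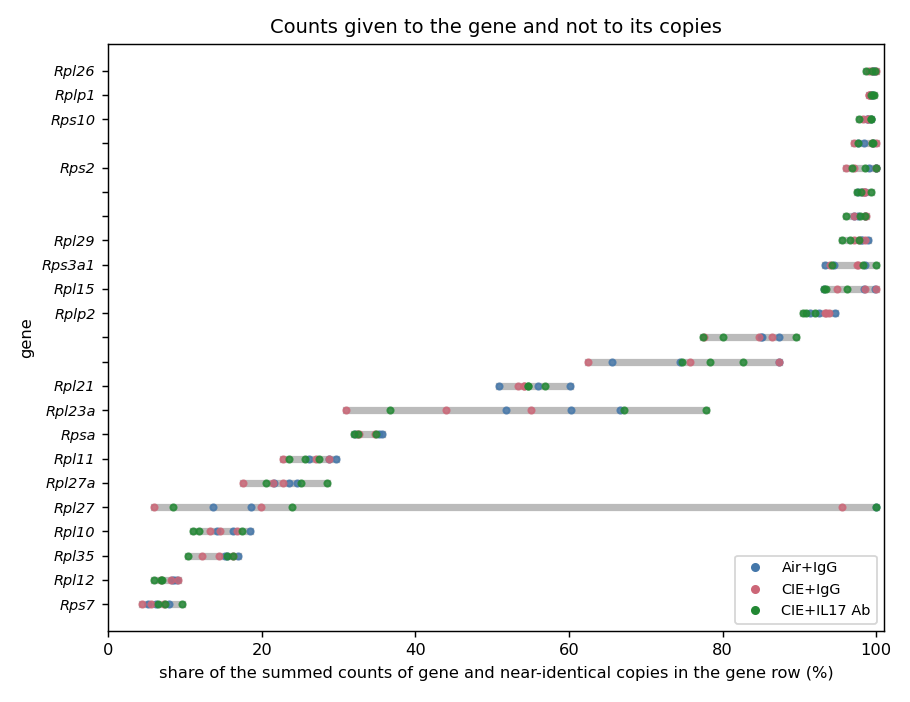
Share of the summed counts of gene and near-identical copies that stood in the gene's own row (x axis, percent), for the 23 genes with a copy in the table (y axis, with names for genes of the text), with 1 point a library coloured by group and a grey bar from the lowest to the highest. Rps7 and Rpl12 stayed under 10% in every library, while Rpl27 ran from 5.95% to 100%.

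Levels are given first, because they set the precision of each gene. Library totals ran from 7372658 to 11894628 counts, and the 76 genes took 0.679% to 0.768% of them. The lowest count of any of these genes in any library was 15. In CPM, which scales the counts of a library to a fixed total, here with edgeR's TMM adjustment of library sizes, the median gene of the set stood at 82.6 CPM, against 26.1 CPM for the median gene tested. Only 16 of the 76 were among the top 10% of genes.

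Levels between genes were compared as mean CPM per kilobase of the principal coding transcript. The highest were Rplp1, a stalk protein, at 413, Rpl41, the smallest ribosomal protein, at 337, Rps15 at 331, Rpl26 at 309, Rpl4 at 251 and Rps3a1 at 243. The lowest were Rps6, the small-subunit protein that S6 kinase phosphorylates, at 5.52, Rpl27 at 6.39, Rpl12 at 7.70, Rps7 at 12.0, Rps27l at 14.3 and Rpl7l1 at 14.4. The highest level was 74.8 times the lowest, and the median was 106 for the large subunit and 115 for the small subunit. Per kilobase of exon union the ratio was 162 and per coding kilobase it was 206, and Rpl12, Rpl27, Rps6 and Rps7 were the lowest 4 by either transcript or coding length. With copies added, Rps7 came to 181 per kilobase of transcript, above the upper quartile of the set (168), Rpl12 to 98.3, near the median (108), and Rpl27 to 32.9. Rps6 had no copy among the rows of the table, although 14 copies of it are annotated.

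**Figure D2:**
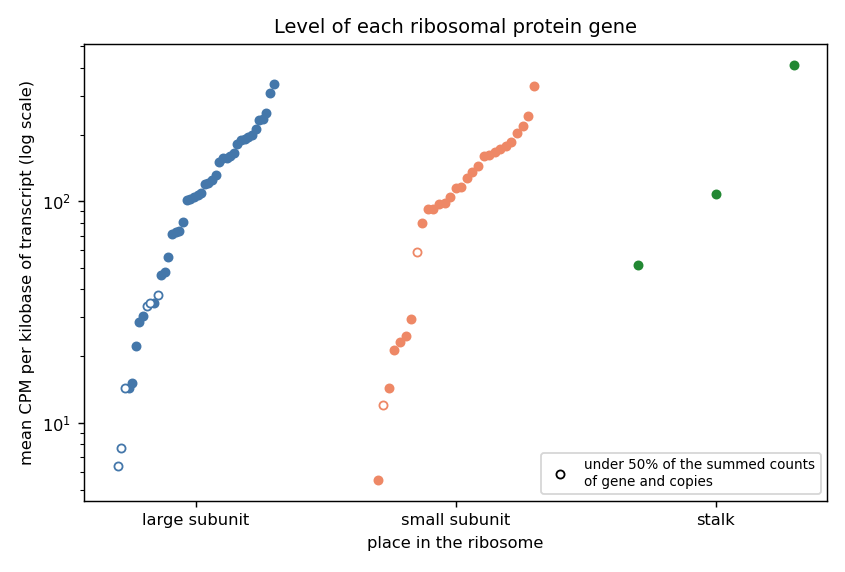
Mean CPM per kilobase of transcript over 9 libraries (y axis, log scale) for each gene, grouped by its place in the ribosome (x axis) and sorted within it. Open points mark genes whose own row held under 50% of the counts of gene and copies: 4 of them, Rpl12, Rpl27, Rpl35 and Rps7, stand near the bottom.

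Some of the genes are paralogs of a core gene, and the 2 whose partner was in the table were lower than it. Rpl22l1 stood at 46.6 CPM per kilobase against 151 for Rpl22. Rpl7l1, which works in ribosome assembly, stood at 14.4 against 165 for Rpl7. Rps27l, an inducible relative of Rps27, stood at 14.3. Rps4x, the X-linked form of Rps4, stood at 178. In CPM, Rps27l measured 7.37, 7.40 and 7.77 in Air+IgG, 6.44, 7.02 and 7.74 in CIE+IgG, and 7.64, 7.59 and 5.27 in CIE+IL17 Ab. Its groups overlapped throughout. Rpl22 was lower in all 3 antibody libraries, at 60.9, 59.3 and 66.2 CPM, than in the CIE+IgG libraries, at 78.7, 68.4 and 77.4, but its adjusted p was 0.138 (edgeR). Its paralog Rpl22l1 had a log2 fold change of 0.05 ± 0.14 (SE) in that comparison. Whether the 2 differ in their change was not tested.

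Within a group, replicates of these genes lay close together. The median within-group SD of log2 CPM was 0.128, against 0.134 for the 3615 genes between the set's lower and upper quartile of level and 0.195 for all genes. Rps10 had the smallest, at 0.057, followed by Rpl18 and Rps9 at 0.064, Rps19 at 0.068 and Rps3 at 0.070. The largest belonged to Rpl27 at 0.646, Rps27a at 0.457, Rps6 at 0.428, Rpl23a at 0.344 and Rpl17 at 0.324. Rpl27, Rps27a and Rps6 are also among the genes of lowest count, and Rpl27 and Rpl23a are those whose share of the family's counts moved most.

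By mean, the summed level of the genes was highest in the air controls and lowest in the antibody group. It was 7158, 7686 and 7625 CPM in Air+IgG (7490 ± 289, SD, n = 3), 7252, 7011 and 7349 CPM in CIE+IgG (7200 ± 174, n = 3) and 7287, 6323 and 6534 CPM in CIE+IL17 Ab (6710 ± 507, n = 3). CIE+IL17 Ab replicates 2 and 3 were the lowest 2 of the 9 libraries, while replicate 1 of that group lay within the range of both other groups. The 3 groups therefore overlapped in the summed level. By mean, 53 of the 76 genes were highest in Air+IgG, 56 were lowest in CIE+IL17 Ab, and 41 had a lower mean at each step from Air+IgG through CIE+IgG to CIE+IL17 Ab. CIE+IL17 Ab replicate 2 was the lowest of the 9 libraries for 31 genes and replicate 3 for 17, whereas replicate 1 was the lowest for 11 and the highest for 14. For these counts by mean and by library, the share of all genes is not given here. They describe the set and do not set it apart from other genes.

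**Figure D3:**
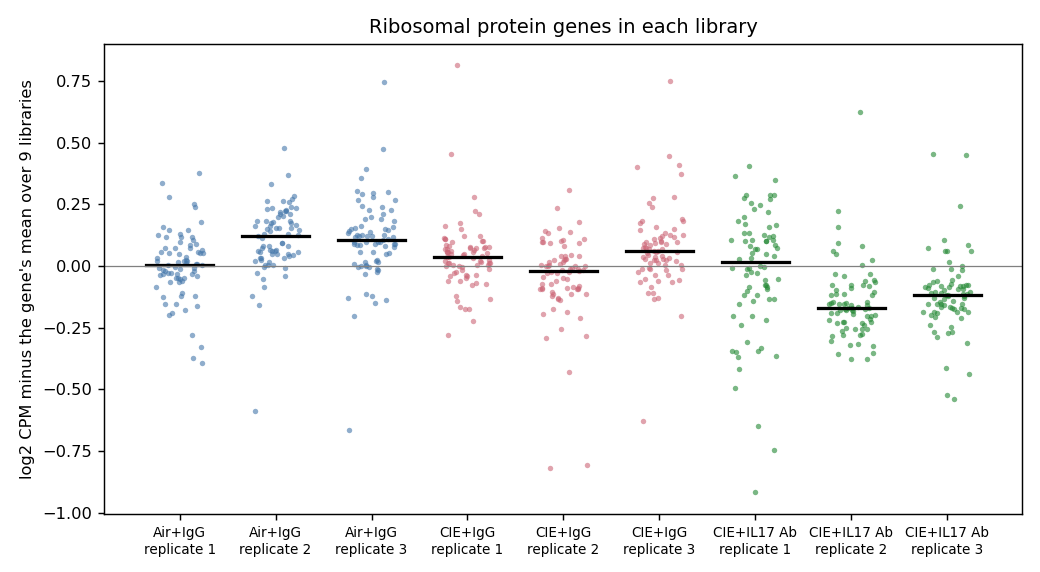
Deviation of log2 CPM of each of the 76 genes from its mean over the 9 libraries (y axis), by library (x axis), with 1 point a gene, colour for the group and a black bar at the median. The median lay at 0.123 in Air+IgG replicate 2, the highest, and at -0.171 in CIE+IL17 Ab replicate 2, the lowest, with CIE+IL17 Ab replicate 1 at 0.015.

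Bulk RNA cannot tell fewer cells of a type from less RNA per cell. The RNA levels of cell-type markers differed between the antibody group and both other groups. In CIE+IL17 Ab against CIE+IgG, 13 of 15 markers of thalamus and habenula were called higher (1.78% of all genes were). Of 9 tested CA1 markers 5 were called lower (1.41% of all genes were), and of 10 oligodendrocyte markers 0 were called. In CIE+IgG against Air+IgG 0 markers were called, but so were 0% of all genes. At an unadjusted p under 0.05 (edgeR), 7 of 10 meningeal fibroblast and 5 of 10 oligodendrocyte markers passed there (1.11% of all genes lower, 1.65% higher). Of 15 markers of thalamus and habenula, regions beside the hippocampus, 14 were called higher in CIE+IL17 Ab than in Air+IgG. Of all genes, 6.83% were called higher and 6.71% lower in that comparison, to which the calls below also belong. The mean deviation of the thalamus and habenula list ran from -1.33 to -1.11 in Air+IgG, from -1.18 to -0.35 in CIE+IgG and from 1.61 to 2.66 in CIE+IL17 Ab. Of 9 tested markers of CA1 pyramidal neurons, 6 were called lower, with list means of 0.82 to 0.99 in Air+IgG, 0.10 to 0.81 in CIE+IgG and -1.79 to -0.67 in CIE+IL17 Ab. Of 10 oligodendrocyte markers, 7 were called higher in that comparison. Of 10 microglia markers 3, Csf1r, P2ry12 and Tmem119, were called lower, with list means of 0 to 0.24 in Air+IgG, -0.01 to 0.16 in CIE+IgG and -0.20 to -0.11 in CIE+IL17 Ab. Of 10 markers of meningeal fibroblasts, 4 were called lower, with list means of 0.36 to 0.82, -1.03 to -0.15 and -0.40 to 0.18 in the same order. The list mean of choroid plexus was lowest in antibody replicate 1, at -3.58, and in air replicate 2, at -2.28, against -0.06 to 1.49 in the other libraries. The part of these lists in the ribosomal protein results was not tested. The transcript Lars2 made up 7.13% of the counts in Air+IgG replicate 2 and 6.71% in replicate 1 of the antibody group, against at most 0.0207% elsewhere.

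Ethanol exposure under the control antibody, CIE+IgG against Air+IgG, gave no ribosomal protein gene past the test. EdgeR's quasi-likelihood test called 0 of the 76 higher and 0 lower at an adjusted p under 0.05, and 0% of all 14696 genes tested were called higher and 0% lower. DESeq2 and limma-voom also called 0 of the 76. At an unadjusted p under 0.05, 2 genes were lower (2.63%, against 1.11% of all genes): Rpl36a, at -0.25 ± 0.09 on the log2 scale (SE), and Rpl13, at -0.30 ± 0.12. By DESeq2 and by limma-voom, 2 passed that mark as well, and the share of all genes is not given for these tools. The median log2 fold change was -0.06, or 3.77% lower, against -0.01 for all genes, and 57 of the 76 (75%) lay below 0, against 52% of all genes. Every CIE+IgG library lay below every Air+IgG library for 6 genes (7.89%, against 4.80% of all genes).

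The largest differences in this comparison were in genes of high replicate spread. Rps27a, which encodes a fusion of ubiquitin with a small-subunit protein, measured 15.8, 9.82 and 9.28 CPM in Air+IgG, 15.5, 12.4 and 25.2 CPM in CIE+IgG and 17.5, 23.0 and 12.6 CPM in CIE+IL17 Ab. Air+IgG replicate 1 lay inside the range of both ethanol groups. The log2 fold change of Rps27a was 0.61 ± 0.33 against Air+IgG in both of them, with an adjusted p of 1 for CIE+IgG and 0.249 for CIE+IL17 Ab (edgeR). It came to 0.26 without CIE+IgG replicate 3 in the first and to 0.36 without CIE+IL17 Ab replicate 2 in the second, and within label numbers 54 to 60 to 0.12 and 0.22. Rpl23a was at -0.48 ± 0.24 in CIE+IgG, with an adjusted p of 1, and at -0.03 once its copies Gm10132 and Rpl23a-ps3 were added. Rpl31 was at 0.33 ± 0.17 and Rps6 at 0.34 ± 0.33, neither past the test.

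The antibody in ethanol-exposed mice, CIE+IL17 Ab against CIE+IgG, also gave no ribosomal protein gene past edgeR's test, with 0 of 76 called higher and 0 lower, where 1.78% of all genes were called higher and 1.41% lower. At an unadjusted p under 0.05, 17 were lower (22.4%, against 11.4% of all genes) and 0 higher. DESeq2 called 2 lower, Rpl30 and Rplp0 (2.63%, where 5.74% of genes overall were called lower), and limma-voom called 0, where 1.99% overall were called lower. An unadjusted p under 0.05 was reached by 14 and 15 of the set, and the share of all genes at that mark is not given for these tools. The share of all genes that edgeR called in either direction, 3.18%, was not stable: it was 0% without CIE+IgG replicate 1, 8.90% without CIE+IL17 Ab replicate 3 and 0.00688% with only the 2 groups compared, and 0 of the 76 were called in each of those fits. The median log2 fold change was -0.11, or 7.10% lower, against 0.01 for all genes. Below 0 lay 61 of the 76 (80.3%, against 47.8% of all genes), and for 17 genes (22.4%, against 13.2%) every CIE+IL17 Ab library lay below every CIE+IgG library. Without CIE+IL17 Ab replicate 1, the median was -0.18 (-0.179).

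Rpl30, which binds its own transcript in yeast and sits in the large subunit, had the smallest p of this comparison. All 3 antibody libraries lay below all 3 CIE+IgG libraries, and its log2 fold change was -0.36 ± 0.10 with an adjusted p of 0.0915 (edgeR). Rplp0, the stalk's base, measured 164, 155 and 154 CPM in CIE+IgG and 126, 124 and 135 CPM in CIE+IL17 Ab. All 3 antibody libraries lay below all 3 CIE+IgG libraries, and the log2 fold change was -0.30 ± 0.09 with an adjusted p of 0.0940. Rpl5, which carries 5S ribosomal RNA into the large subunit and binds Mdm2, measured 32.3, 37.7 and 33.2 CPM in CIE+IgG against 19.3, 26.6 and 27.3 CPM in CIE+IL17 Ab. Its groups did not overlap either, with a log2 fold change of -0.49 ± 0.15 and an adjusted p of 0.109. Rpl29, at -0.34 ± 0.11, and Rps2, at -0.28 ± 0.10, also had small p-values, with adjusted p of 0.109 and 0.131 (edgeR). Rps7 stood at 0.33 ± 0.23, the highest value of this comparison, and at -0.12 with its copies added.

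The antibody group against air controls, CIE+IL17 Ab against Air+IgG, was the comparison in which edgeR called genes of the set. It called 4 of the 76 lower (5.26%, against 6.71% of all genes) and 0 higher (against 6.83% of all genes), so the share called was near that of all genes. Most of the set lay on the low side: 66 of the 76 (86.8%) were below 0, against 48.4% of all genes, and the median was -0.18, or 11.5% lower, against 0.01 for all genes. The genes were measured in the same libraries, so they are not separate evidence of a shift. By library, in replicate order, the median deviation of the set was 0.015, -0.171 and -0.118 in CIE+IL17 Ab. In Air+IgG it was 0.006, 0.123 and 0.107, so antibody replicate 1 lay within the air range. At an unadjusted p under 0.05, 27 were lower (35.5%, against 15.7% of all genes) and 0 higher. For 24 genes (31.6%, against 18.1%) every antibody library lay below every air library. Of the 76, 74 lay within 0.5 of 0 on the log2 scale. The 3 comparisons share libraries, so they are not independent. With the 3 groups tested together, edgeR called 0 of the 76 (against 5.71% of all genes) and limma-voom 0 (against 6.76%). DESeq2 called 5 (6.58%, against 14.9% of all genes). Each of these tools put 20 at an unadjusted p under 0.05, and the share of all genes at that mark is not given here.

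**Figure D4:**
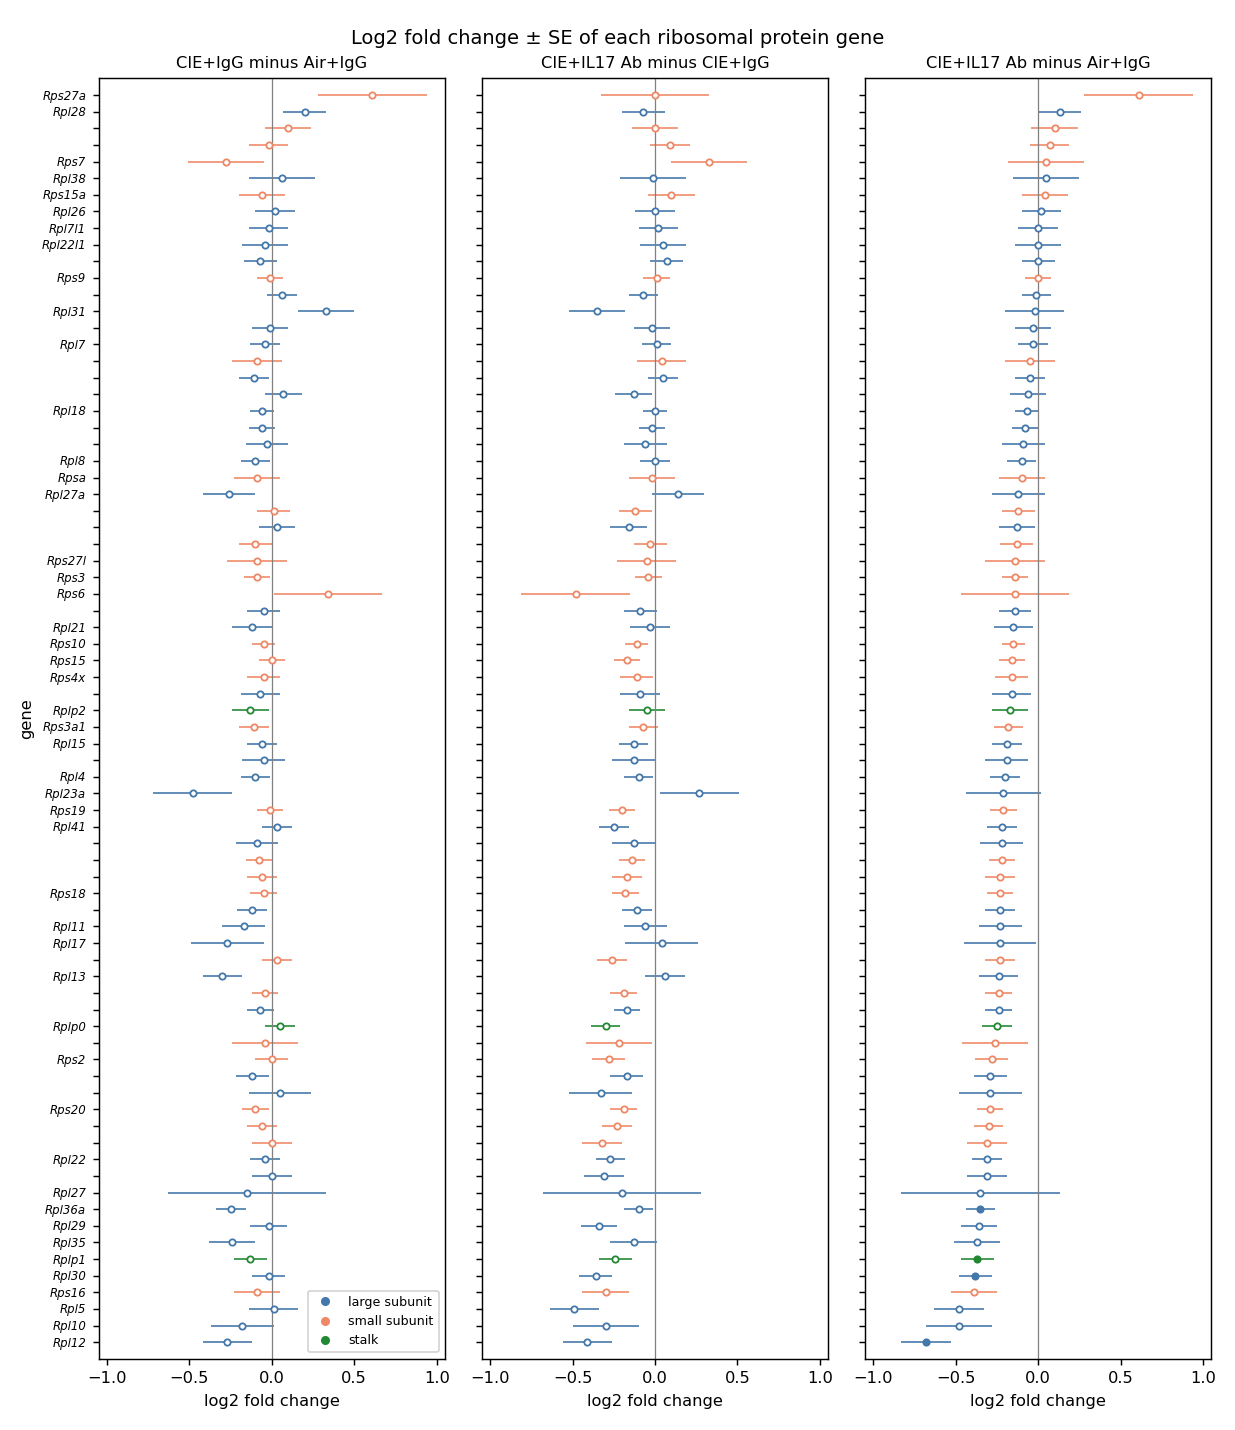
Log2 fold change (x axis) with its SE for each of the 76 genes (y axis, in the order of the right panel, with names for genes of the text) in the 3 comparisons, coloured by place in the ribosome, with filled points for an adjusted p under 0.05. Filled points stand only in the right panel, at Rpl12, Rpl36a, Rplp1 and Rpl30, and most points there lie left of 0.

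Rpl12 had the largest fall among the called genes. It measured 10.6, 11.4 and 13.1 CPM in Air+IgG (11.7 ± 1.25, SD, n = 3), 8.27, 10.1 and 10.7 CPM in CIE+IgG (9.69 ± 1.27) and 6.95, 7.44 and 7.49 CPM in CIE+IL17 Ab (7.29 ± 0.297). Every antibody library lay below every library of the other groups, and the CIE+IgG and Air+IgG ranges touched. Against Air+IgG, Rpl12 fell by 0.68 ± 0.15 on the log2 scale, a ratio of 0.624, with an adjusted p of 0.0243 (edgeR). These values rest on 50 to 138 counts a library, since the row of Rpl12 held only 7.86% of the counts of gene and copy. Summed with Gm10275, Rpl12 measured 128, 133 and 145 CPM in Air+IgG, 121, 123 and 117 CPM in CIE+IgG and 117, 107 and 109 CPM in CIE+IL17 Ab. The sum fell by 0.30 ± 0.08 with an adjusted p of 0.0400, so the sum was still called, with a smaller fall than the row of Rpl12 alone.

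Rpl36a, an X-linked large-subunit gene (chrX:134585654-134588062), measured 65.6, 68.7 and 72.1 CPM in Air+IgG (68.8 ± 3.26, SD, n = 3), 58.6, 55.4 and 59.4 CPM in CIE+IgG (57.8 ± 2.14) and 59.5, 49.2 and 53.7 CPM in CIE+IL17 Ab (54.1 ± 5.18). All 3 air libraries lay above all 6 ethanol libraries, while the ethanol groups overlapped each other. It fell by 0.35 ± 0.09 between the air and antibody groups, with an adjusted p of 0.0353 (edgeR), and the antibody against CIE+IgG gave -0.10 ± 0.09. Its near relative Rpl36al, named apart by the symbol rule, was at -0.14 ± 0.13.

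Rplp1, one of the acidic stalk proteins that recruit translation factors (chr9:61913284-61914542), measured 219, 247 and 225 CPM in Air+IgG (230 ± 14.9, SD, n = 3), 216, 192 and 221 CPM in CIE+IgG (210 ± 15.9) and 178, 164 and 192 CPM in CIE+IL17 Ab (178 ± 14.2). The antibody libraries lay below all air libraries, and the CIE+IgG libraries overlapped those of air and reached down to the highest antibody library. The fall was 0.37 ± 0.10 with an adjusted p of 0.0379 (edgeR). Of the other stalk genes, Rplp0 stood at -0.25 ± 0.09 and Rplp2, the partner of Rplp1, at -0.17 ± 0.11, neither past the test.

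Rpl30 (chr15:34440505-34443640) measured 92.0, 104 and 96.4 CPM in Air+IgG (97.4 ± 5.91, SD, n = 3), 99.2, 83.0 and 106 CPM in CIE+IgG (96.1 ± 11.8) and 80.3, 71.2 and 73.5 CPM in CIE+IL17 Ab (75.0 ± 4.74). The antibody libraries lay below all libraries of both other groups, which overlapped each other. The fall against air was 0.38 ± 0.10, with an adjusted p of 0.0453 (edgeR). Rpl30 was among the genes that moved most like the set as a whole.

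The number of calls changed with the libraries used, in the set and in all genes. When any 1 of the 3 air libraries or replicate 2 of the antibody group was left out, edgeR called 0 of the 76, with 15 to 29 at an unadjusted p under 0.05. In the same fits the share of all genes called lower dropped from 6.71% to 1.40%, 0.976% and 0% without air replicates 1, 2 and 3, and to 0.455% without antibody replicate 2. Leaving out replicate 1 of CIE+IgG gave 1 call (1.32%, against 3.47% of all genes), and leaving out replicate 1 of the antibody group gave 15 (19.7%, against 7.07%). The count was 4 (5.26%) without CIE+IgG replicate 2 or antibody replicate 3, where 5.24% and 8.70% of all genes were called lower. It was 5 (6.58%, against 6.93% of all genes) without CIE+IgG replicate 3. The fall of Rpl12 ran from -0.75 to -0.60 over the libraries left out in turn, that of Rpl36a from -0.42 to -0.29, that of Rplp1 from -0.44 to -0.32 and that of Rpl30 from -0.43 to -0.34. DESeq2 called 9 (11.8%, against 10.2% of all genes called lower), with Rpl5, Rpl22, Rpl29 and Rps20 among those added to these 4. Limma-voom called the 4 (5.26%, against 7.55% of all genes called lower). Both tools put 27 of the 76 at an unadjusted p under 0.05. Within the 6 libraries with label numbers 54 to 60, where each group keeps 2, edgeR called 0 (0% of all genes lower), with 9 at an unadjusted p under 0.05. Without the 2 Lars2-rich libraries it called 2 (2.63%, against 3.03% of all genes). For the counts at an unadjusted p in these alternative fits, the share of all genes is not given here.

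**Figure D5:**
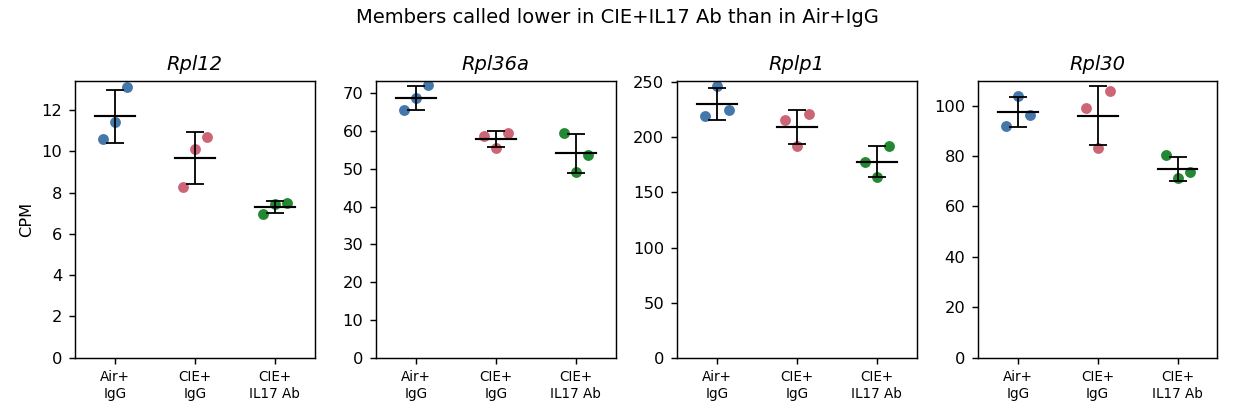
CPM (y axis, from 0) of the 4 genes called lower in CIE+IL17 Ab than in Air+IgG, by group (x axis), with 1 point a library and bars for mean ± SD. The antibody libraries of Rpl12 lie between 6.95 and 7.49, under every library of the other groups.

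Small-subunit genes also missed the threshold. Rps20 measured 82.1, 89.7 and 87.6 CPM in Air+IgG against 74.9, 68.7 and 68.5 CPM in CIE+IL17 Ab, without overlap, and gave -0.29 ± 0.08 with an adjusted p of 0.0510 (edgeR). Rps16, at -0.39 ± 0.14, had 0.0909. Rps20 has no copy in the table, but it passed in the fit in which the other genes' copies were summed, with an adjusted p of 0.0435 (edgeR). By subunit, the medians were -0.19 for the 44 large-subunit genes, of which 39 lay below 0, and -0.16 for the 29 small-subunit genes, of which 24 did. Rpl10, at -0.48 ± 0.20 with an adjusted p of 0.130, came to -0.20 with its copy Rpl10-ps3 added. The few genes above 0 included Rps27a at 0.61 and Rpl28 at 0.13 ± 0.13, neither past the test.

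Across the 9 libraries, which share depth, scaling and group, the genes did not all move together. The correlation of a gene with the mean of the other 75 was highest for Rps20, at a Pearson r of 0.972, Rps18 and Rps19, at 0.942, and Rpl30, at 0.939. It was lowest for Rps7, at -0.484, Rps27a, at -0.444, and Rpl28, at -0.227. The row of Rps7 held only 6.65% of the counts of gene and copies. With its copies added, Rps7 measured 158, 160 and 161 CPM in Air+IgG, 157, 148 and 138 CPM in CIE+IgG and 155, 117 and 139 CPM in CIE+IL17 Ab. The correlation of that sum with the set is not given here. Rps27a had a within-group SD of 0.457, among the largest of the set. Among genes outside the set with a mean of at least 10 CPM, those most like the mean of the set were Mcts1, a factor of translation re-initiation, at 0.955, Ruvbl1, an ATPase, at 0.951, and Fam118b, at 0.949. Gmfb, Pcna, Tmem119, the microglia marker called lower above, Tomm20, Rfc1, Tmem167 and Yme1l1 followed, at 0.943 to 0.920. Mirror images of it were Reep2, at -0.943, Sirt2, at -0.914, Gss, at -0.911, Pfdn2, a prefoldin subunit, at -0.909, and a gene without a symbol, at -0.923.

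Genes that work with the ribosomal proteins were described from lists. In CIE+IL17 Ab against Air+IgG, Fau, which encodes a small-subunit protein fused to a ubiquitin-like one, stood at -0.16 ± 0.18, and Rack1, a scaffold on the small subunit, at -0.15 ± 0.08, neither past the test. Of 20 tested translation factors known for pyrimidine-start mRNAs, 1 was called lower, Eif3e, a subunit of initiation factor eIF3. It measured 82.1, 83.1 and 84.5 CPM in Air+IgG against 61.8, 57 and 63.9 CPM in CIE+IL17 Ab and fell by 0.45 ± 0.08, with an adjusted p of 0.0141 (edgeR). The median of that list was -0.07, and that of 27 initiation factors was -0.04. Of these 27, edgeR called 0 and put 1 at an unadjusted p under 0.05, against 15.7% of all genes lower and 16.3% higher. Of 34 tested genes of ribosome assembly, 3 were called lower, Nhp2 of the H/ACA particles at -0.70 ± 0.15, Bop1 at -0.51 ± 0.14 and Tsr1 at -0.45 ± 0.10, with a median of -0.10.

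Of 12 genes of RNA polymerase I, which makes ribosomal RNA, Polr1d was called lower, at -0.68 ± 0.12 with an adjusted p of 0.0135 (edgeR), and the median was -0.02. Of 23 genes of mTORC1 signalling, Rraga, a GTPase that brings mTORC1 to the lysosome, was called higher in CIE+IL17 Ab against Air+IgG, by 0.44 ± 0.08, and against CIE+IgG, by 0.36 ± 0.08. Of 11 tested genes of ribosome quality control, Zfp598, which marks collided ribosomes, was called higher, by 0.48 ± 0.10. Against 6.71% of all genes called lower and 6.83% higher, the 0 to 3 calls a list were near the background. In CIE+IgG against Air+IgG, edgeR called 0 genes of these 6 lists, where 0% of all genes were called. At an unadjusted p under 0.05 it put 0 of them, against 1.11% of all genes lower and 1.65% higher. The 77 mitochondrial ribosomal protein genes, a separate ribosome, had medians of -0.03, -0.04 and -0.04 in the 3 comparisons in the order given above, with Mrps17 alone called, at -0.38 ± 0.10 in CIE+IL17 Ab against Air+IgG.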

How the data were processed

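The authors deposited 1 table of expected counts (RSEM's estimated counts) per gene, unscaled, for 9 stranded polyA libraries. Per the submitters' processing notes, these expected counts came from STAR 2.5.1a and RSEM 1.3.0 on GRCm38. Their annotation release and filters are unknown here. RSEM divides reads between similar sequences, which makes genes with near-identical copies uncertain. Expected counts were rounded, filtered with filterByExpr (minimum count 10), scaled with TMM and tested in 1 fit of all 9 libraries with edgeR 4.0.16 (R 4.3.3; quasi-likelihood F-test, robust, 6 residual degrees of freedom) and Benjamini-Hochberg adjustment over 14696 genes. The SE is the log2 fold change divided by the square root of F. DESeq2 1.42.0, limma-voom 3.58.1, other scalings, filters and designs were alternatives. The fits were tested on simulated data. Copies were found by aligning coding sequences to GENCODE M21 transcripts. Genes named are the largest and smallest changes, smallest p-values, levels and spreads of each comparison, and called list members. Mrps17 was named after its values were seen, and some genes that the rule takes are not reported here. The members and lists were chosen with earlier results of these data known. The design text gives 3 mice a group.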

Additional observations from a re-analysis of the deposited data

How the results depend on the processing

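The median log2 fold changes of the set stayed below 0 under every alternative run, with values over the libraries left out in turn of -0.094 to -0.037 for CIE+IgG against Air+IgG, -0.179 to -0.078 for CIE+IL17 Ab against CIE+IgG and -0.235 to -0.153 for CIE+IL17 Ab against Air+IgG. The median of CIE+IL17 Ab against CIE+IgG moved beyond the spread between replicates only where CIE+IL17 Ab replicate 1 was left out, alone or with the other Lars2-rich library (-0.179 both times). The number of genes called was less stable. In CIE+IL17 Ab against Air+IgG it was 4, with 6.71% of all genes called lower, and 2 of these 4 were among the 53 genes without a copy in the table. It was 17 at an adjusted p under 0.1 (11.7%), 9 with DESeq2 (10.2%) and 2 with only the 2 groups compared (3.66%). Without the Lars2-rich libraries it was 2 (3.03%), and with label numbers 54 to 60 it was 0 (0%). Over the libraries left out in turn it was 0 to 15, where 0% to 8.70% of all genes were called lower. The fit with 15 had 7.07%, and that with 8.70% had 4. In CIE+IL17 Ab against CIE+IgG it was 0, against 2 at an adjusted p under 0.1 (4.59%) and 2 with DESeq2 (5.74%). It was 0 in every fit with 1 library left out, where 0% to 5.32% of all genes were called lower. With the 3 groups together it was 0, against 4 at an adjusted p under 0.1 (13.1% of all genes) and 5 with DESeq2 (14.9%). Over libraries left out it was 0 to 1, where 0.142% to 9.05% of all genes were called, with 4.03% in the fit with 1. The cause of these differences was not tested.

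With the replicate number as a block (a paired fit), 1 gene, Rpl12, was called in CIE+IL17 Ab against Air+IgG (1.57% of all genes lower) and 0 in the other comparisons. Deviations of same-numbered libraries correlated at -0.27 to 0.25 over all genes and at -0.43 to 0.17 over the set. With 3 libraries a group, these correlations cannot settle whether the numbers pair the samples. Directions of some single genes turned, among them Rps7 and Rpl23a, the highest of CIE+IL17 Ab against CIE+IgG at 0.33 and 0.27. In CIE+IL17 Ab against CIE+IgG, with copies added, Rpl23a came to -0.15, Rpl27a to -0.14 and Rps7 to -0.12; without CIE+IL17 Ab replicate 1 or the Lars2-rich libraries, Rpl27a came to -0.05 and Rps15a to -0.11. Over the libraries left out, Rpl27a ran from -0.05 to 0.26 and Rps15a from -0.11 to 0.20. In CIE+IL17 Ab against Air+IgG, Rpl38 came to -0.10 without Air+IgG replicate 1 and ran up to 0.23 over the libraries left out. The call counts of 0 given in this section came from edgeR. With 3 libraries a group, an exact permutation test cannot go below p = 0.1.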
